A study of Mus musculus with 6 samples.

Results

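Glutathione transferases of the alpha, pi and microsomal classes were measured in villi of 5-day-old mice in which Trpm7, the gene of a channel-kinase, was deleted in enterocytes, and in villi of their control littermates. The members were the 9 genes Gsta1, Gsta2, Gsta3 and Gsta4 of the alpha class, Gstp1 and Gstp3 of the pi class, and Mgst1, Mgst2 and Mgst3 of the microsomal class, out of 19938 genes that a probe set of the array named singly. Of the 9, 7 had 1 probe set each that listed no other gene. Gsta1 and Gsta2 had none, and were read only from 4 probe sets that list both together with their near-identical neighbours Gm3776 and Gm10639. A further 2 probe sets list Gstp1 together with Gstp2, so that 13 probe sets of 30177 on the array bear on the members, and the shared ones are given apart.

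Mutant mice were Trpm7 fl/fl;Villin1-Cre and controls were Trpm7 fl/fl, so both groups carried the floxed allele and only the mutants carried the Cre transgene, which the Villin1 promoter drives in enterocytes along the whole intestine. Excision of the floxed sequence shifts the reading frame of Trpm7 and leaves the gene intact in villus cells that do not express the transgene. Villi from the whole intestine were profiled at P5 on 1 Affymetrix array per replicate, with 3 mutant and 3 control replicates of unknown gender. The labels name a C57BL/6 background. By the study's methods the floxed line was 129S6/SvEvTac and mice with the Cre transgene were C57BL/6J. Whether a replicate was a single pup or a pool was not given, so n counts arrays and p-values measure the spread between arrays.

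Glutathione transferases join the thiol of reduced glutathione to electrophiles, which makes these compounds more soluble and ready for export from the cell. The alpha, mu and pi classes are cytosolic enzymes, and in rodents the alpha class is abundant in enterocytes and liver, where foreign compounds and peroxidised lipids are met. The microsomal enzymes are unrelated to these in sequence. They are integral membrane proteins of the MAPEG family, whose other members act in the synthesis of leukotrienes and prostaglandins.

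The values are log2 signals, on which a difference of 1 is a 2-fold change, and signals of different probe sets are on no common scale. A probe set is said to be higher or lower where the adjusted p of limma over all 30177 probe sets was 0.05 or less. By this criterion 2427 probe sets (8.04%) were higher and 2661 (8.82%) were lower in mutant villi. The split moved to 1996 higher and 3456 lower when each array was centred on its median, and the 6 medians lay between 6.24 and 6.30 as deposited. Trpm7 itself was at 8.03, 7.79 and 7.88 in mutant villi, against 9.11, 8.96 and 9.03 in control villi, a difference of -1.13 ± 0.09 (SE, adjusted p = 0.00019, limma). Whether its probe set covers the excised sequence was not stated. All 8 enterocyte markers lay above the array median in both groups, and 3 were higher, 1 lower and 4 not called. Krt20 was higher by 1.37 (adjusted p = 0.00011, limma) and Fabp1 lower by 0.59 on the log2 scale (adjusted p = 0.00257, limma). Means over the markers were 12.95 to 12.98 on mutant arrays and 12.79 to 12.80 on control arrays. Of 6 measured goblet cell markers, 5 were lower in mutant villi, and of 10 neutrophil markers 4 were higher, with means over the list of 6.25 to 7.28 on mutant arrays and 5.06 to 5.09 on control arrays. In tissue of several cell types, fewer cells of one type and less RNA in each cannot be told apart.

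Of the 13 member probe sets, 9 were higher in mutant villi, against a background of 8.04%, 1 was lower, against 8.82%, and 3 did not pass the test. The 3 genes with their own probe set that were higher were Gsta3, Gstp1 and Mgst2, Gstp3 was lower, and Gsta4, Mgst1 and Mgst3 were not called. All 6 shared probe sets were higher. With a change of at least 2-fold required as well, 7 member probe sets were higher and 1 lower, where the background was 1.35% and 1.17%. Among the 7, Gstp1 was at the edge, at 2.01-fold. Mutant and control arrays did not overlap for 10 of the 13, as for 34.5% of all probe sets. The median difference was 1.01 over the 13 and 0.00 over all probe sets. The shared probe sets list the same genes several times over and were not counted as independent measurements, so the 7 genes with their own probe sets, of which 3 were higher and 1 lower, are the firmer count.

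**Figure D1:**
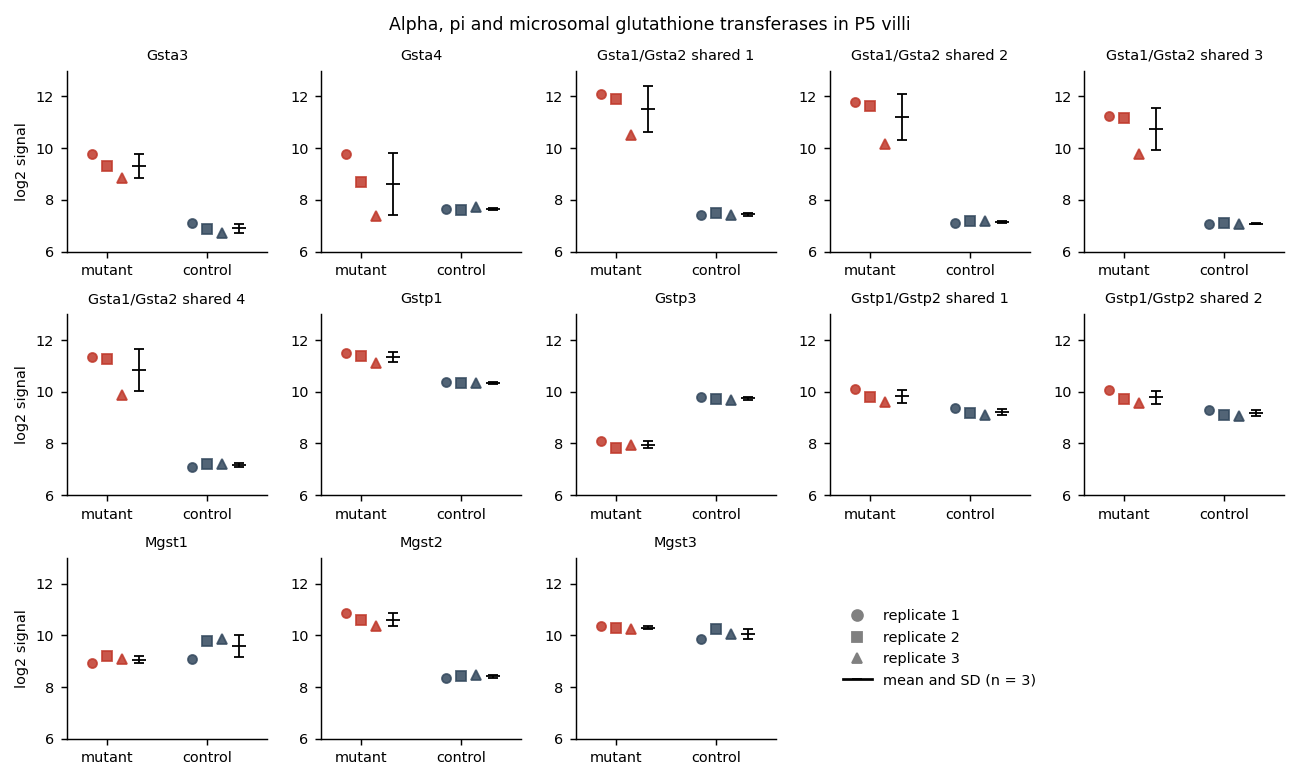
Log2 signal (vertical axis, the same range in every panel) of the 13 member probe sets on each mutant array (red) and each control array (dark blue). Marker shapes give the replicate number and black bars the mean and SD of 3 arrays. The 4 probe sets shared by Gsta1 and Gsta2 lie between 9.79 and 12.11 on mutant arrays and between 7.07 and 7.50 on control arrays, Gstp3 is lower on all mutant arrays, and the mutant arrays of Gsta4 lie on both sides of its control arrays.

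The alpha class held the largest differences of the members. The probe set of Gsta1, Gsta2, Gm3776 and Gm10639 with the largest difference was at 12.11, 11.92 and 10.50 in mutant villi, against 7.40, 7.50 and 7.43 in control villi. Every mutant array lay at least 3 log2 units above the controls, and mutant replicate 3 was the lowest of them. The difference was 4.07 ± 0.37 (SE, n = 3 each), or 16.8-fold, with an adjusted p of 0.00038 from limma. The other 3 probe sets of these genes differed by 4.05, 3.64 and 3.66, or 16.5-, 12.5- and 12.6-fold, with adjusted p-values between 0.0004 and 0.00044 from limma. In all 4, mutant replicate 3 was lowest, and the highest mutant array exceeded it by 2.73- to 3.07-fold, while the 3 control arrays lay within 0.13 log2 units of each other. Which of the listed genes gave the signal cannot be told apart on these probe sets. Gsta1 and Gsta2 encode the classical alpha enzymes, which conjugate foreign compounds and also reduce fatty acid hydroperoxides with glutathione.

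Gsta3, whose enzyme inactivates aflatoxin epoxide in mouse liver, was at 9.76, 9.32 and 8.83 in mutant villi, against 7.10, 6.87 and 6.74 in control villi. The groups were well apart, and the lowest mutant array stood above the highest control array by more than the range of either group. The difference was 2.40 ± 0.22 (SE), or 5.28-fold, with an adjusted p of 0.00036 from limma. Gsta3 was called with any 1 array left out, with differences of 2.17 to 2.64. Its gene lies on another chromosome than those of Gsta1, Gsta2 and Gsta4.

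Gsta4, whose enzyme has a marked preference for hydroxynonenal and related products of lipid peroxidation, was at 9.78, 8.69 and 7.39 in mutant villi, against 7.64, 7.61 and 7.71 in control villi. Mutant replicates 1 and 2 lay above every control array, whereas mutant replicate 3 lay below every one. The mutant arrays spanned 2.39 log2 units, a 5.24-fold range, and the control arrays 0.10. The difference of 0.97 ± 0.50 (SE, 95% CI from -0.18 to 2.11) did not pass the test (adjusted p = 0.246, limma). Without mutant replicate 3 it was 1.58 (adjusted p = 0.0118, limma), and without mutant replicate 1 it was 0.39 (adjusted p = 0.518, limma). It was not called without any 1 array other than mutant replicate 3. On the linear scale the interval reached up to 4.32-fold and included no change.

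The RefSeq promoter table for GRCm38.p6 held 8 of the 9 members, Gsta4 being the exception. The 250 bases before the start of Gsta1 (chr9:78230419-78230668, plus strand) and of Gsta3 (chr1:21240335-21240584, plus strand) are shown because the alpha genes moved most. Capitals mark matches to 3 short motifs, searched on both strands. These were TGACNNNGC, the core of the antioxidant response element that NRF2 binds, TGANTCA, the AP-1 element, and GCGTG, the core of the xenobiotic response element of the aryl hydrocarbon receptor. They occurred in the same window of 10.2%, 6.75% and 28.2% of 32851 mouse promoters.
Gsta1: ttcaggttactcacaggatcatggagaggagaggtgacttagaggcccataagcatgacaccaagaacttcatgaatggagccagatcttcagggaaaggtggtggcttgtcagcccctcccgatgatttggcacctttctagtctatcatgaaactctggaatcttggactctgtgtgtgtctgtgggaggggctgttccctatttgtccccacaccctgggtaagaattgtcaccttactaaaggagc
Gsta3: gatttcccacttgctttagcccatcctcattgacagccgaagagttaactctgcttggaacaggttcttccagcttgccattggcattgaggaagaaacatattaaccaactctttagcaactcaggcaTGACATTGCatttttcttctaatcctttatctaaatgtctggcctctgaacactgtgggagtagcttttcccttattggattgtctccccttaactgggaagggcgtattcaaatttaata
The stretch of Gsta3 held 1 antioxidant response element core, TGACATTGC, that begins 121 bases before the start, and no match to the other motifs. The stretch of Gsta1 held none of the 3 motifs. It was identical at 236 of 250 positions to that of Gm3776 and at 233 to that of Gm10639, against 190 for Gsta2 and 154 for Gsta3. The same alignment gave 140 to 156 positions for the pi and microsomal genes, so the value of Gsta3 is no higher than for other classes. Gsta2 had only a GCGTG, 7 bases before its start. A match is a match of letters in this window alone, and elements that lie farther from the start were not searched.

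The pi class was split. Gstp1, a widely expressed transferase that many tissues share, was at 11.51, 11.40 and 11.13 in mutant villi, against 10.37, 10.32 and 10.33 in control villi. The groups did not overlap, and the control arrays lay within 0.05 of each other. The difference was 1.01 ± 0.10 (SE), or 2.01-fold, with an adjusted p of 0.00066 from limma. Gstp1 was called under every alternative tried, but it met the 2-fold criterion only narrowly. Its difference was 0.925 to 1.115 when 1 array was left out, and 0.957 when each array was centred on its median. The 2 probe sets shared with Gstp2, a close paralogue of Gstp1, had smaller differences of 0.61 ± 0.13 each (SE), with adjusted p-values of 0.0169 and 0.0156 from limma. The second of these was at 10.05, 9.73 and 9.57 in mutant villi, against 9.31, 9.12 and 9.08 in control villi, so that the lowest mutant array stood 0.26 above the highest control array. Without control replicate 2 or control replicate 3, neither shared probe set was called (adjusted p from 0.056 to 0.0621, limma), and without mutant replicate 2 the first one was not (adjusted p = 0.051, limma). Whether probes of the Gstp1 set also bind Gstp2 was not tested.

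Gstp3, another gene of the same cluster, went the other way. It was at 8.09, 7.84 and 7.95 in mutant villi, against 9.81, 9.71 and 9.70 in control villi. No array came near the other group, and the mutant arrays differed from the control mean by -1.90 to -1.65. The difference was -1.78 ± 0.09 (SE), 3.43-fold lower, with an adjusted p of 3.3e-05 from limma, and it was called under every alternative tried. Only 0.106% of all probe sets had a smaller adjusted p. Gstp3 was the only member that was lower by the test. The mean over 6 goblet cell markers was 8.74 to 9.19 on mutant arrays and 10.84 to 11.06 on control arrays, and the part of goblet cells in the Gstp3 signal was not tested.

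The pi genes lie side by side on the minus strand of chromosome 19, and the stretches of Gstp1 (chr19:4037913-4038162) and Gstp3 (chr19:4059448-4059697) are shown, in the direction of transcription, because these neighbours moved in opposite directions.
Gstp1: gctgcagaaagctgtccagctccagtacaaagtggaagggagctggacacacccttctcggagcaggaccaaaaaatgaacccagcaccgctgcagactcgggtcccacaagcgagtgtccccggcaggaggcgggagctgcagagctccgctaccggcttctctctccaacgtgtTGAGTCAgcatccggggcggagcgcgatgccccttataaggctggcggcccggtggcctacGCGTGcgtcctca
Gstp3: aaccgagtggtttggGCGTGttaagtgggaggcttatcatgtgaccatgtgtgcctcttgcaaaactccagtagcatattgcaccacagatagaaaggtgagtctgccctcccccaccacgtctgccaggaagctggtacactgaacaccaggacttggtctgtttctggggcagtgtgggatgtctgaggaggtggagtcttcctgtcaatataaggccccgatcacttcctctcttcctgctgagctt
Gstp1 held an AP-1 element, TGAGTCA, that begins 74 bases before the start, and a GCGTG 13 bases before it. Gstp2 held the same TGAGTCA at 89 bases, and its stretch was identical to that of Gstp1 at 208 of 250 positions. In both genes GC follows the TGAGTCA. These letters differ from the searched antioxidant response element core, TGACNNNGC, only in that TGAG stands in place of TGAC. The stretch of Gstp3 matched that of Gstp1 at only 148 positions, where those of the microsomal genes matched it at 140 to 149. Gstp3 had neither the antioxidant response element core nor the AP-1 element, but a GCGTG 235 bases before its start.

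Of the microsomal enzymes, only Mgst2 was called. Mgst2, which in humans can conjugate a leukotriene with glutathione as well as reduce lipid hydroperoxides, was at 10.88, 10.59 and 10.35 in mutant villi, against 8.36, 8.44 and 8.45 in control villi. Its control arrays lay within 0.09 of each other and every mutant array was at least 1.9 above their highest. The difference was 2.19 ± 0.13 (SE), or 4.56-fold, with an adjusted p of 6.5e-05 from limma. It was called under every alternative tried, with differences of 2.05 to 2.32 when 1 array was left out.

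Mgst1, found in the endoplasmic reticulum and outer mitochondrial membrane of rat liver, was at 8.92, 9.19 and 9.08 in mutant villi, against 9.08, 9.79 and 9.85 in control villi. Control replicates 2 and 3 lay above every mutant array, and control replicate 1 lay among the mutant arrays. The difference of -0.51 ± 0.20 (SE, 95% CI from -0.96 to -0.06) did not pass the test after adjustment (adjusted p = 0.126, limma). It passed without control replicate 1, at -0.76 (adjusted p = 0.00481, limma), and with array weights, at -0.62 (adjusted p = 0.0348, limma). Replicate 1 was also the lowest array of each group in the means of several marker lists. The mean of 6 fibroblast markers was 7.81 on mutant and 7.40 on control replicate 1, with the other arrays between 7.75 and 8.19. That of 4 smooth muscle markers was 7.28 and 7.21, with the others between 7.62 and 7.73. Replicate 1 was lowest in both groups as well for enteroendocrine, Paneth, neutrophil, mast cell and lymphocyte markers and for the only measured erythroid marker. The trait was thus not particular to fibroblasts and smooth muscle. Fibroblast means were 7.81 to 8.19 on mutant arrays and 7.40 to 7.75 on control arrays. The part of any of these cell types in the Mgst1 signal was not tested.

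Mgst3, which has glutathione-dependent peroxidase activity in humans, was at 10.35, 10.30 and 10.25 in mutant villi, against 9.84, 10.25 and 10.06 in control villi. The groups touched, since the lowest mutant array equalled the highest control array. The difference was 0.25 ± 0.11 (SE, 95% CI from -0.00 to 0.50), with an adjusted p of 0.172 from limma. It was not called under any alternative tried, and its interval reached up to 1.41-fold.

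**Figure D2:**
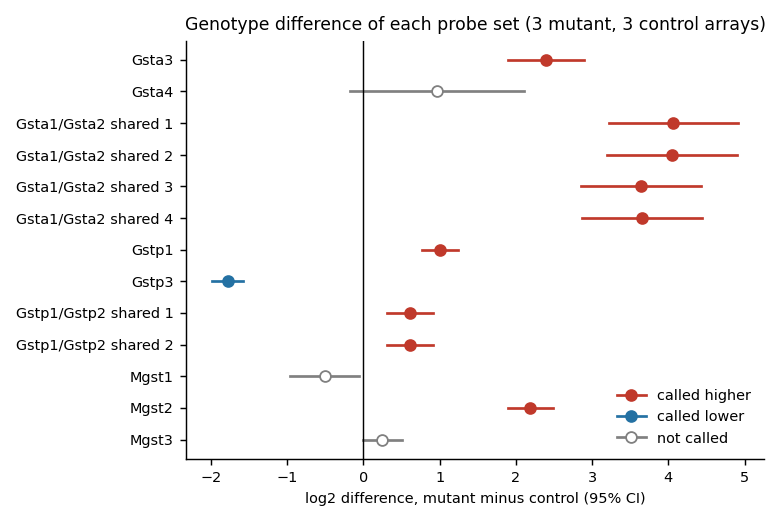
Log2 difference between mutant and control villi for the 13 member probe sets (points, 3 arrays per group) with the 95% confidence interval of the limma fit (lines). Filled points passed the test (red higher, blue lower in mutant villi) and open grey points did not. The intervals of Gsta4 and Mgst3 include 0, that of Mgst1 does not although its adjusted p is 0.126, and Gstp3 alone is called lower.

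Among microsomal promoters, that of Mgst2 (chr3:51660929-51661178, plus strand) is shown because this gene alone of its class was called.
Mgst2: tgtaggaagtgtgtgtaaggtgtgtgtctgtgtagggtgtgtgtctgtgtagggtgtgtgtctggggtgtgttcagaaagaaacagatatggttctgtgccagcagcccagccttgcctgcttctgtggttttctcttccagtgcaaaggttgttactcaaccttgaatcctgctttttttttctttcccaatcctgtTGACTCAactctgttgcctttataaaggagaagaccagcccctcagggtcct
It held an AP-1 element, TGACTCA, that begins 52 bases before the start given in the table. This start lies well inside the span of the gene in RefSeq, which begins farther upstream, and no other start of Mgst2 was searched. The starts of Gsta2, Gsta3 and Gstp3 lie inside their genes by less than the length of the window. Mgst1 has 2 starts in the table. The first had 1 antioxidant response element core on the opposite strand, 56 bases before the start, and the second had no match. Mgst3 had only a GCGTG, 22 bases before its start. A match to TGANTCA reads the same on both strands and was counted once, and no match of 1 motif overlapped a match of another in any of these stretches. Across the members with a promoter, the exact core TGACNNNGC thus occurred in a gene that was higher (Gsta3) and in 1 not called (Mgst1). It was absent from these windows of Gstp1, Mgst2, Gsta1 and Gsta2. The windows of Gstp3, which was lower, and of Mgst3, which was not called, lacked it too. Variants of the core, such as the TGAGTCAGC of Gstp1, were not searched.

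The members that were higher did not rise evenly across the mutant replicates. All 9 member probe sets that were called higher had the same order, with mutant replicate 1 highest and mutant replicate 3 lowest. That order was found in 26% of all 2427 probe sets called higher and in 37.3% of the 408 that were higher at least 2-fold. For Gsta3 and both probe sets shared by Gstp1 and Gstp2, the control arrays with these numbers had the same order. These counts are a description, since the 4 probe sets of Gsta1 and Gsta2 and the 2 of Gstp1 and Gstp2 list the same genes. The separation between mutant replicates 1 and 3 was largest for Gsta4, at 2.39, and for the shared alpha probe sets, at 1.45 to 1.62, and was 0.93 for Gsta3, 0.53 for Mgst2 and 0.38 for Gstp1. Of 10 neutrophil markers, 8 had the opposite order on the mutant arrays, with replicate 3 highest and replicate 1 lowest, among them the 4 that were called. The exceptions were Camp, at 5.65, 5.74 and 5.69 in mutant villi, and Ly6g, at 6.70, 4.45 and 4.77, with mutant replicate 1 highest. S100a9, an abundant neutrophil protein, was at 7.94, 8.81 and 10.39 in mutant villi, against 5.41, 5.73 and 5.63 in control villi. The mean over 10 neutrophil markers was 6.25, 6.44 and 7.28 on mutant arrays 1, 2 and 3, with Mpo and Elane, which mark early granulocytes, at or below 5.60 on every array. The part of such cells in the replicate order was not tested.

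**Figure D3:**
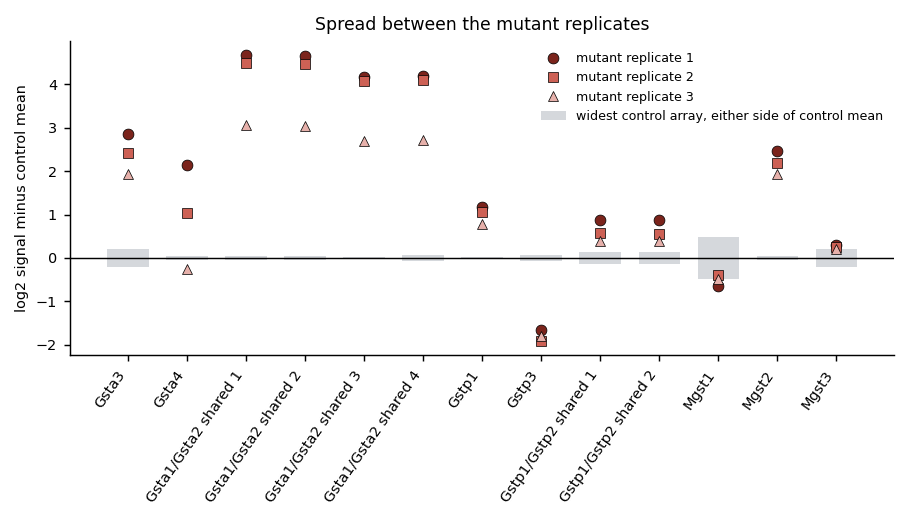
Log2 signal of each mutant replicate minus the control mean (vertical axis) for the 13 member probe sets, with grey bars that reach as far from 0 as the control array farthest from the control mean. Mutant replicate 3 is the lowest of the mutant replicates in the 9 probe sets that were called higher, and it lies 0.26 below the control mean for Gsta4.

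The mu class, a further cytosolic class with overlapping substrates, was mixed in the same way. Of its 7 genes 3 were higher, 1 was lower and 3 were not called. Gstm3 was at 11.73, 11.41 and 10.57 in mutant villi, against 7.88, 8.46 and 8.19 in control villi, a difference of 3.06 ± 0.28 (SE, adjusted p = 0.0004, limma). Gstm1 differed by 2.94 ± 0.30 (SE, adjusted p = 0.00062, limma), and in both genes the mutant replicates had the order of the alpha genes. Gstm5 was lower by 1.31 on the log2 scale, at 8.96, 8.75 and 9.14 in mutant villi against 10.19, 10.27 and 10.32 in control villi (adjusted p = 0.00023, limma), with no overlap between the groups. Of the 9 genes of the theta, zeta, omega, kappa and sigma classes 2 were higher and 3 lower. Gsto1, of the omega class, was higher by 0.94 (adjusted p = 0.00026, limma). Hpgds, the sigma-class enzyme that makes prostaglandin D, was lower by 1.69 on the log2 scale (adjusted p = 3.3e-05, limma), and Gstz1, which acts in tyrosine breakdown, was lower by 0.69 (adjusted p = 0.0155, limma). All 6 measured markers of tuft cells, another source of prostaglandin D, lay under the array median in at least 1 group and none was called. Of 7 mast cell markers, a further source of it, 3 were lower and all lay under the array median.

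**Figure D4:**
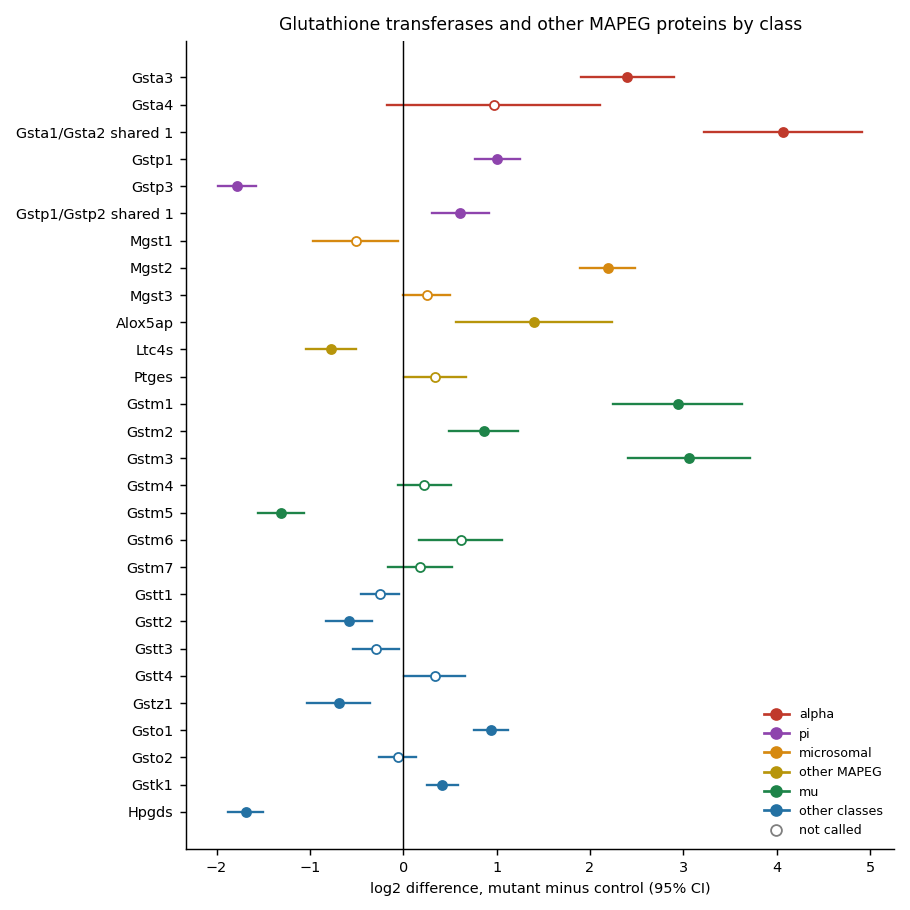
Log2 difference between mutant and control villi for the alpha, pi and microsomal genes, the other MAPEG proteins and the remaining transferase classes. Points are from 3 arrays per group, with 95% confidence intervals from limma, and each row is 1 probe set. Gsta1 and Gsta2 stand together by their shared probe set with the largest difference. Gstp1 stands by its own probe set and by 1 shared with Gstp2. Filled points passed the test. All differences of 2.40 or more are in the alpha and mu classes, and the pi, mu, other MAPEG and other classes each hold genes called in both directions.

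The other proteins of the MAPEG family did not move with Mgst2 as a group. Alox5ap, which presents arachidonate to the lipoxygenase of leukotriene synthesis, was at 6.92, 7.39 and 8.59 in mutant villi, against 6.18, 6.24 and 6.28 in control villi, a difference of 1.40 ± 0.36 (SE, adjusted p = 0.0334, limma). Its mutant arrays were ordered like the neutrophil markers, opposite to Mgst2. Ltc4s, the leukotriene C synthase, was lower by 0.77 on the log2 scale (adjusted p = 0.00328, limma), and Ptges, a prostaglandin E synthase, was not called. Of 12 measured genes of leukotriene and prostaglandin synthesis, 3 were higher and none lower, with a median difference of 0.19. The largest was Ptgs2, the inducible cyclooxygenase, at 1.70 (adjusted p = 0.00135, limma).

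Genes that supply, recycle or break down the cosubstrate were higher more often than lower. Of 9 genes of glutathione synthesis and turnover, 5 were higher, 2 lower and 2 not called, with a median difference of 0.67. Over all probe sets 8.04% were higher and 8.82% lower, with a median difference of 0.00. Gclc, the catalytic subunit of the enzyme that limits glutathione synthesis, was at 12.81, 12.10 and 11.51 in mutant villi, against 9.19, 8.58 and 8.70 in control villi, a difference of 3.32 ± 0.31 (SE, adjusted p = 0.0004, limma). Gsr, which reduces oxidised glutathione, was higher by 1.68 (adjusted p = 3.5e-05, limma), and Slc7a11, the cystine carrier, by 2.46 (adjusted p = 0.009, limma). Slc7a11 was at 8.25, 6.35 and 6.49 in mutant villi, against 4.73, 4.76 and 4.23 in control villi. Its control mean lay under the array median, and mutant replicate 1 was far above the other mutant arrays. The 2 that were lower were Ggct and Chac2, which act in the breakdown of glutathione, although Chac1, of the same function, was higher by 0.84 (adjusted p = 0.00248, limma).

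Genes that act downstream of conjugation were read next. Of 17 measured genes of conjugate export and mercapturate formation, 6 were higher, 2 lower and 9 not called, against 8.04% and 8.82% of all probe sets higher and lower, with a median difference of 0.07. The 2 that were lower were Nat8, which acetylates cysteine conjugates, and Acy3, a deacylase of such products, by 0.57 and 0.47 on the log2 scale (adjusted p = 0.0196 and 0.00279, limma). Dpep1, a dipeptidase that trims glutathione conjugates, was higher by 1.48 (adjusted p = 0.0025, limma), and the conjugate pumps Abcc1 and Abcc3 were higher by 1.14 (adjusted p = 0.00097, limma) and 1.09 (adjusted p = 0.037, limma). Among 14 measured genes that act on lipid aldehydes, substrates shared with Gsta4, 4 were higher, 1 lower and 9 not called. The median difference of these genes was 0.08. Akr1b8, an aldo-keto reductase, was at 12.07, 11.86 and 10.37 in mutant villi, against 6.23, 6.58 and 6.56 in control villi, a difference of 4.98 ± 0.39 (SE, adjusted p = 0.00021, limma), and mutant replicate 3 was lowest there too.

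Regulators known to act on transferase genes were also read. Of 17 measured regulators and reporter genes of NRF2, the factor that binds antioxidant response elements, 9 were higher, none lower and 8 not called. Over all probe sets 8.04% were higher and 8.82% lower. Those called included Nqo1, a quinone reductase, higher by 2.66 (adjusted p = 0.00021, limma), Tkt by 1.43 (adjusted p = 0.00026, limma) and Pgd by 1.21 (adjusted p = 0.00056, limma), both of the pentose phosphate pathway. The transcript of NRF2 itself, Nfe2l2, was at 10.41, 10.55 and 10.43 in mutant villi, against 10.36, 10.57 and 10.53 in control villi, and that of its inhibitor Keap1 differed by 0.03. Neither passed the test, and neither is a measure of NRF2 protein. The mean over the list was 10.63, 10.51 and 10.15 on mutant arrays 1, 2 and 3, and 9.60 to 9.65 on control arrays. Of 11 measured genes of the other receptors and factors 2 were higher and 1 lower. Ahr, the aryl hydrocarbon receptor, was higher by 0.46 (adjusted p = 0.00429, limma) and its target Cyp1b1, with both group means under the array median, by 0.93 (adjusted p = 0.0222, limma). Its targets Cyp1a1 and Ahrr, also dim, differed by -0.10 and 0.28 and were not called (adjusted p = 0.528 and 0.166, limma), while Rxra was lower by 0.44 (adjusted p = 0.0202, limma).

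The neighbours of the members on the chromosome were read as well, 5 protein-coding genes to each side in RefSeq order and any between the members of a cluster. Of 53 that were measured, 9 were higher, 8 lower and 36 not called, where 8.04% and 8.82% of all probe sets were higher and lower. Beside the alpha cluster of Gsta1, Gsta2 and Gsta4, 2 of 11 were higher, Gclc and Cilk1 (0.85, adjusted p = 0.00558, limma), and Elovl5 was lower by 0.62 (adjusted p = 0.00342, limma). Beside Gsta3, Mcm3 and Paqr8 were higher and Tram2 and Tmem14a lower, each by at most 0.66. Beside the pi cluster none of 7 was higher, and Acy3 and Ndufv1 were lower by 0.47 and 0.29 (adjusted p = 0.00279 and 0.0227, limma). None of 10 neighbours of Mgst1 was called, while beside Mgst2 3 of 10 were higher (Maml3, Foxo1 and Lhfp) and 3 lower (Ndufc1, Cog6 and Nhlrc3), each by at most 0.51. Beside Mgst3, Uck2 was higher by 1.24 (adjusted p = 0.00805, limma) and Nuf2 by 0.53 (adjusted p = 0.0215, limma).

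The genes whose values over the 6 arrays were most like those of Gsta3, by Pearson correlation, were Capg, Dusp6, Gclc, Tgfbr2 and Plaur, with correlations of 0.998 to 0.999. All were higher in mutant villi, by 1.29 to 3.32. Those most like Gstp3 were Nsun4, Snx6, Zc3h4, Fggy and Rep15, all lower with differences of -2.59 to -0.72, and with correlations of 0.999 to 1.00. For Gsta4 they were D630045J12Rik, Ttll10, Pip4p2, Nat8f5 and Morn3, with correlations of 0.986 to 0.994 and differences of 0.08 to 0.22, none of which passed the test. These correlations are over 6 arrays of 2 genotypes and carry the genotype difference, so they describe these arrays only.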

How the data were processed

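Villi of 3 mutant and 3 control replicates at P5 were measured on Affymetrix whole-transcript arrays from biotin-labelled DNA made from total RNA. The values as the authors deposited them are log2 signals, normalized by a method not given in the sources used here, 1 for each probe set on each array and rounded to 0.01. The number of arrays limits the precision. Names came from the platform annotation: 21789 probe sets had 1 symbol, 1621 several and 6767 were unnamed here, and all 30177 entered the test. Groups were compared by lmFit and eBayes of limma 3.58.1 in R 4.3.3, two-sided, adjusted by Benjamini-Hochberg across all of them, with 3.92 prior degrees of freedom, the fit being tested on simulated data first. With 3 arrays a group, no exact permutation test can give a p below 0.1.

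Each gene of a list stood by its single-symbol probe set of highest mean, and lists were described by counts and medians without a set test. Text names all members, up to 3 called genes of largest difference per list, called neighbours, and the 5 genes most correlated with Gsta3, Gsta4 and Gstp3. Ptges, Chac1, Ggct, Chac2, Nfe2l2, Keap1, Cyp1a1, Ahrr, Nat8, Camp, Ly6g, Mpo and Elane were named outside that rule, after their values were seen. The members and lists were chosen with earlier results of these data known. Alternatives were other limma settings, the test of Student, treat against 1.2-fold, other scaling, filters, control replicates 2 and 3 averaged, the replicate number as a block and each array left out. Promoters were the RefSeq stretches of 250 bases (GRCm38.p6), aligned globally with Biopython 1.88. pandas 2.3.3 was used for tables, matplotlib 3.10.9 for figures. No array was left out.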

Additional observations from a re-analysis of the deposited data

How the results depend on the processing

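No member changed direction under any alternative, and of 215 values of single probe sets 200 kept their side of the threshold, 11 lost the call and 4 gained it. The 11 were all of the probe sets shared by Gstp1 and Gstp2, under the test of Student (adjusted p of 0.111 and 0.105), treat against 1.2-fold with limma (0.189 and 0.175), control replicates 2 and 3 averaged (0.0577 and 0.0539) or 1 array left out. The 4 gained were Gsta4 without mutant replicate 3 and Mgst1 in 3 settings. With array weights Mgst1 was lower by 0.62 (adjusted p = 0.0348, limma) and 2 members were lower. The replicate numbers of the titles gave a block under which Mgst1 was lower by 0.51 (adjusted p = 0.0444, limma), 2 members were lower and 4957 probe sets were called. Same-numbered arrays deviated together with correlations of 0.174, 0.039 and 0.119, and 5 of 6 arrays correlated best with their own number. These 6 comparisons come from the same correlations and are not independent. The pairing is at most a hint of the data, and the arrays share only a number. With only single-symbol probe sets, 3 members were higher, since the shared ones drop out and have no value there. With 1 array left out, the member probe sets that were lower numbered 1 to 2 of 13, and those that were higher 7 to 10. All probe sets called then numbered 3249 to 4385, against 5088 with all arrays. The lowest count was without mutant replicate 2, and without control replicate 2 it was 3336. All probe sets called numbered 2450 by the test of Student and 1539 by treat. With a fold of 1.5 in place of 2, 10 member probe sets passed rather than 8.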

Other observations

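Hmox1, the inducible heme oxygenase, had a pattern over the arrays like that of Gsta4 and was named after its values were seen. It was at 12.91, 12.21 and 9.22 in mutant villi, against 8.97, 8.73 and 8.80 in control villi. Mutant replicate 3 lay 0.25 above the highest control array and the other mutant arrays more than 3 above it. The difference of 2.61 ± 0.81 (SE) did not pass the test (adjusted p = 0.0646, limma).

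Genes of the proximal small intestine were more often lower and some of the distal small intestine higher in the same villi. Of 8 proximal genes 6 were lower and none higher, with a median difference of -0.73, and Lct, the brush border lactase, was lower by 0.94 (adjusted p = 0.00361, limma). Of 7 distal genes 3 were higher and none lower, among them Fabp6, the ileal bile acid binding protein, at 9.93, 10.82 and 9.87 in mutant villi, against 7.82, 5.64 and 5.56 in control villi (difference 3.87, adjusted p = 0.00335, limma). Control replicate 1 stood above the other controls for Fabp6 by more than 2 log2 units. The part of the region sampled in the transferase values was not tested.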
